A study of Mus musculus with 32 samples.

Results

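RNA polymerase II (Pol II) and the general transcription factors are the proteins that start and extend messenger RNA synthesis at protein-coding genes. Genes were taken by name: every symbol beginning with Polr2, Gtf2 or Taf followed by a digit, together with Tbp, Tbpl1, Tbpl2, Supt5, Supt6, Cdk7, Cdk9, Ccnt1 and Ccnh. This gave 61 of the 24013 genes in a table of developmental stages and 60 of 22536 in each of 2 knockdown tables, where Taf1a was not listed. By role they comprised 12 Pol II core subunits, the Pol II associated Polr2m, 3 members of the TATA-binding protein family, 16 TBP-associated factors (TAFs) of TFIID, 2 TAF relatives of the SAGA coactivator, 4 TAFs of the Pol I factor SL1, Taf15, 3 genes of TFIIA, 1 of TFIIB, 2 of TFIIE, 2 of TFIIF, 5 of the TFIIH core, 2 of the TFIIH kinase, 3 of the TFII-I family, 2 of P-TEFb and the elongation factors Supt5 and Supt6. The name rule thus also takes in genes that do not serve Pol II alone.

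Polyadenylated RNA was sequenced by a modified Smart-seq2 method, which copies whole transcripts from very few cells, in 32 mouse samples. Metaphase II (MII) oocytes (2 samples) came from superovulated C57BL/6N females, and the embryos came from such females mated with DBA/2N males: zygotes (2), embryos of the early 2-cell (2), 2-cell (2), 4-cell (2) and 8-cell (2) stages and the inner cell mass (ICM, 3). The ICM was taken from blastocysts by immunosurgery, which strips the outer trophectoderm, and R1 mouse embryonic stem cells (mESC, 2) were an established line grown in serum with the cytokine LIF. The knockdown samples were C57BL/6N x DBA/2N embryos injected with siRNA and cultured in CZB medium with glutamine: 4 control and 4 Nr5a2 knockdown libraries at the 8-cell stage, and 3 control and 4 Gata4 knockdown libraries at the blastocyst stage. The labels name no siRNA sequence for the controls and no litter, culture or pool behind a replicate, so p-values measure only the spread between these libraries, which may be technical.

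At a promoter, TFIID brings the TATA-binding protein (TBP) and its TAFs to DNA, TFIIA and TFIIB stabilise it and position Pol II, and TFIIE, TFIIF and TFIIH complete the complex and open the DNA. The kinase of TFIIH (Cdk7 with cyclin H, Ccnh) phosphorylates the tail of the largest subunit, and P-TEFb (Cdk9 with cyclin T1, Ccnt1) later releases the paused polymerase. In the mouse the oocyte and zygote live on stored maternal RNA, and broad transcription of the embryonic genome begins at the 2-cell stage. Oocytes are also known to use germ-cell versions of some general factors in place of the widely expressed ones.

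Promoter sequences are shown for 6 genes named in the results below: Tbpl2 and Taf13, highest in the oocyte, Tbp, highest at the early 2-cell stage, Cdk9 and Polr2e, highest after the 2-cell stage, and Polr2a, the catalytic subunit. They run 5′ to 3′ from 250 bases before to 50 bases after the transcript start and come from RefSeq on GRCm38.p6, whereas the expression values were made on mm9. The positions are Tbpl2 at chr2:24096546-24096845 (minus strand), Taf13 at chr3:108571449-108571748 (plus strand), Polr2a at chr11:69758584-69758883 (minus strand), Tbp at chr17:15499638-15499937 (plus strand), Cdk9 at chr2:32712735-32713034 (minus strand) and Polr2e at chr10:80039610-80039909 (minus strand). Capitals mark motif matches. GGGCGG, the GC box, was searched on both strands, as were CCGGAAG, an ETS-type site, and CCAAT, the CCAAT box. TATAAA, the TATA box, was searched on the forward strand only. ATAAA was marked where its first base lay 40 to 20 bases before the start, and it lies inside a TATA box where both occur.
Tbpl2 promoter: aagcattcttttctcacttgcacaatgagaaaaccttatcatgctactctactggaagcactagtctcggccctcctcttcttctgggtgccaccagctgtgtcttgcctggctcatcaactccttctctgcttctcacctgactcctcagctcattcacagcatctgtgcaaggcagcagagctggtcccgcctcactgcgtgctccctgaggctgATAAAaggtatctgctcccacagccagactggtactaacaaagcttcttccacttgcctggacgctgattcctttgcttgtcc
Taf13 promoter: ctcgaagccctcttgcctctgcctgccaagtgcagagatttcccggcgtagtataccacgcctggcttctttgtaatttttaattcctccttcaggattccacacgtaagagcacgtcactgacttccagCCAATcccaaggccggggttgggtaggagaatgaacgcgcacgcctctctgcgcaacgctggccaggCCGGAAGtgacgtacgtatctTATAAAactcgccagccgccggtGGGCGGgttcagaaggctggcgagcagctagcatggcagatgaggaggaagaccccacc
Polr2a promoter: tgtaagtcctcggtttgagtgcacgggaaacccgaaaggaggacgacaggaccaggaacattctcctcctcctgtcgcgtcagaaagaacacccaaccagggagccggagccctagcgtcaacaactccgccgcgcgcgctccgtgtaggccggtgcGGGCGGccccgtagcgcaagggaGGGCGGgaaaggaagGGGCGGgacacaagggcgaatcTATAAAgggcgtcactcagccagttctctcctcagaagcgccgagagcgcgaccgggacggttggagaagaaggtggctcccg
Tbp promoter: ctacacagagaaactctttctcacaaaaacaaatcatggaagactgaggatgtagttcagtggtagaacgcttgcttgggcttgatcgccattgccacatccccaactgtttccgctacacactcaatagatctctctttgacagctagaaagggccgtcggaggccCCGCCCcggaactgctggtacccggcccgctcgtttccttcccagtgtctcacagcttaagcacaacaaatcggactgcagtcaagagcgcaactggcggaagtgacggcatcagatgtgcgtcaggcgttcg
Cdk9 promoter: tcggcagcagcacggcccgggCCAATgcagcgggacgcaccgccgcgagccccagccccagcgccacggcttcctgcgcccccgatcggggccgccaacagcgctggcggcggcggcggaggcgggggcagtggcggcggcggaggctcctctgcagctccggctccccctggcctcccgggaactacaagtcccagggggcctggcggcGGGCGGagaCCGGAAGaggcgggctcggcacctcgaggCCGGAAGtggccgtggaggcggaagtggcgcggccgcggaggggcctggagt
Polr2e promoter: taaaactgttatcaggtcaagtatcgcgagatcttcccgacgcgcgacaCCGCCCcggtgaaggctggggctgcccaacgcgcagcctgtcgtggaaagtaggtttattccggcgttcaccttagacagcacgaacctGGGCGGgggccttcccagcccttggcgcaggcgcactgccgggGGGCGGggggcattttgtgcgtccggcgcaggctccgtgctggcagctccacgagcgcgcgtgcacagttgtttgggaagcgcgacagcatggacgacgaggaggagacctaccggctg

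Of the 61 genes, 53 were found in RefSeq by symbol, with 64 promoters among 32851 in all. The GC box was present in 67.2% of the 64 promoters and in 35.7% of all promoters, and the ETS-type site in 34.4% against 8.86%. The CCAAT box was at 29.7% against 37.4% and the TATA box at 9.38% against 8.32%. A letter sequence bound by NR5A2, CAAGGNCA on either strand, was at 3.12% against 6.71% and occurred in the promoters of Polr2i and Taf1b. ATAAA in the window before the start, a motif added after the sequences had been seen, was found in Tbpl2, Taf13 and Polr2a (4.69% against 4.25%). All of these are among the promoters shown, so the display over-represents this motif. Promoters of genes highest in the oocyte to early 2-cell period had the GC box in 10 of 20 cases and those of genes highest in the 2-cell to 8-cell period in 28 of 36. Their median GC contents were 56.7% and 62.2%, beside 52.7% for all promoters. These matches describe letters in a fixed window and are not measured binding sites.

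Expression was deposited as FPKM, in which fragment numbers are divided by transcript length and library depth, so levels of different genes can be set side by side. The stage table has 1 column per stage and its replicates cannot be seen, so stage values carry no error and no test. Read depth is unknown. Total FPKM per stage ran from 234738 in 2-cell embryos to 495643 in MII oocytes, and Rn45s, which gives the precursor of ribosomal RNA, stood at 0 in the columns of zygotes, ICM and the 2-cell, 4-cell and 8-cell embryos. It stood at 6967 FPKM in MII oocytes, 6829 in early 2-cell embryos and 2555 in mESC. Oocyte marker genes (8 listed) summed to 11612 FPKM in MII oocytes, 2800 in early 2-cell embryos and 497 in 2-cell embryos, and in ICM all 6 trophectoderm markers reached 1 FPKM with a sum of 164 (16.2 in 8-cell embryos). Cumulus cell markers summed to 24.8 FPKM in MII oocytes with 4 of 8 at 0, and 6 fibroblast markers summed to 0.388 FPKM in mESC. Whole embryos and cell groups were sequenced in bulk, so fewer cells of a type and less RNA per cell cannot be told apart. As polyadenylated RNA was sequenced, a change in mRNA amount and a change in its poly(A) tail cannot be told apart either. The targeted gene Nr5a2 was at 13.1 to 25.2 FPKM in controls and 3.76 to 6.72 in knockdowns, and Gata4 at 0.716 to 5.44 in controls and 0 to 0.368 in knockdowns.

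The summed level of the 61 genes was 0.685% of all FPKM in MII oocytes, 0.764% in zygotes and 0.767% in early 2-cell embryos. It stood at 1.6% in 2-cell, 1.23% in 4-cell and 0.978% in 8-cell embryos and at 0.563% in ICM and 0.636% in mESC. The module thus took its largest share of FPKM at the 2-cell stage, whose column had the lowest total (234738 FPKM). The sum itself was 3748 FPKM in 2-cell and 3824 in 4-cell embryos. Taf9, whose level is uncertain as described below, gave 852 FPKM of the 2-cell sum. The heatmap of all genes by stage shows that the module's share is made of genes with opposite courses.

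**Figure D1:**
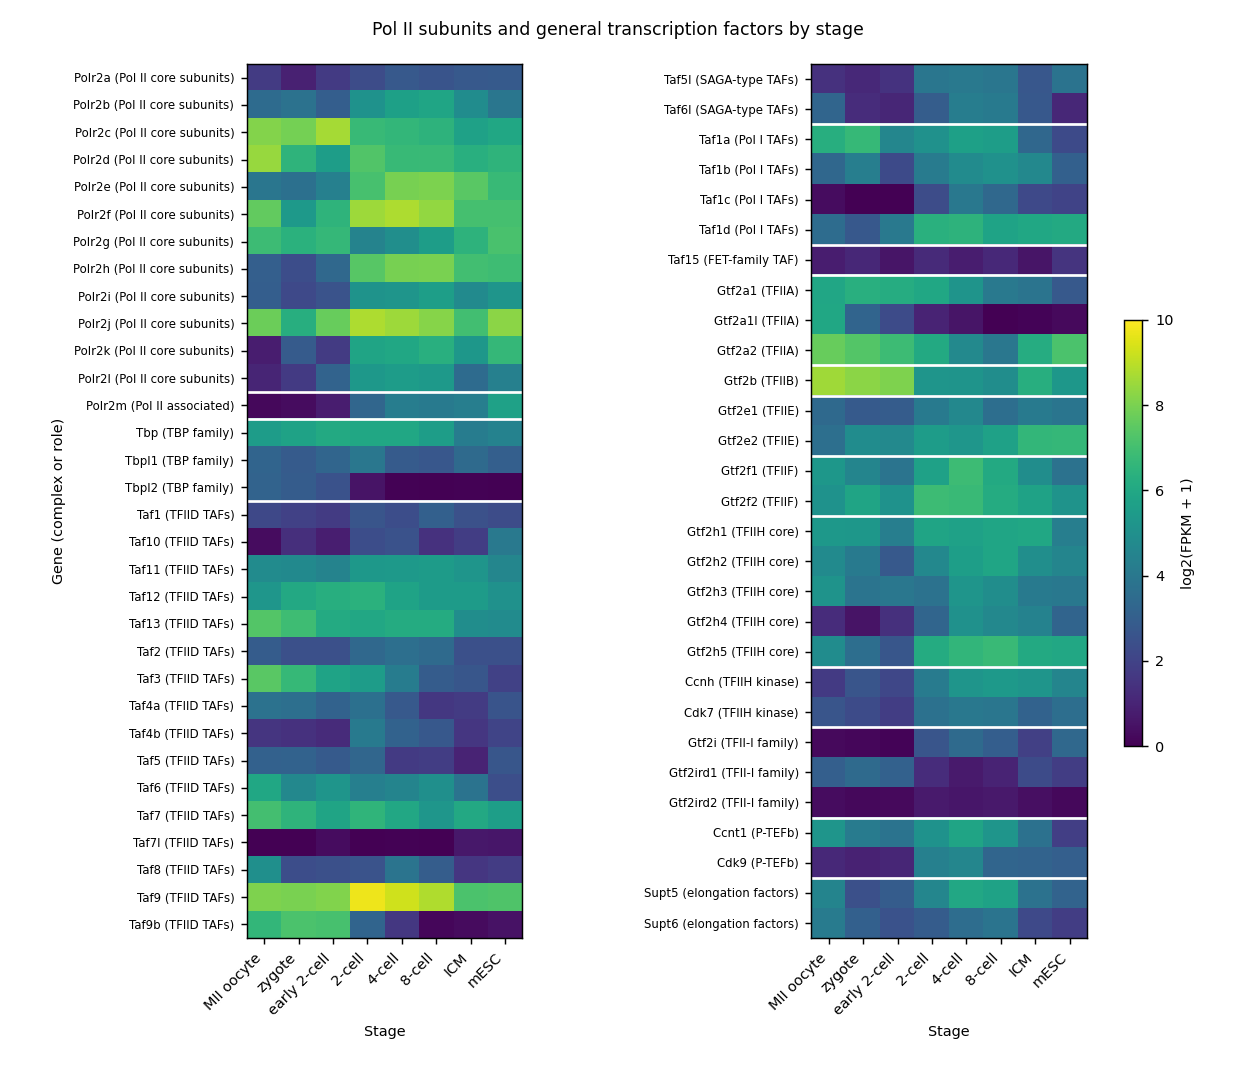
Level of each of the 61 genes (rows, grouped by complex or role with white lines between groups) in the 8 deposited stage columns, as log2(FPKM + 1) in colour from 0 to 10. Most Pol II subunits and TFIIH genes brighten between the early 2-cell and 2-cell columns, while Tbpl2, Gtf2a1l and Taf9b darken.

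Between neighbouring stages a gene was counted as higher or lower when log2(FPKM + 1) differed by at least 1 and the higher stage had at least 5 FPKM. The denominators are genes with at least 5 FPKM in the higher stage. From MII oocyte to zygote 2 of 47 of the module's genes were higher and 12 lower, against 12.6% and 21.6% of all genes. Rn45s stood at 6967 FPKM in the MII oocyte column and at 0 in the zygote column. Its part in this step was not tested. From zygote to early 2-cell embryo 5 of 43 were higher and 5 lower, against 5.33% and 8.58%. Here Rn45s stood at 0 in the zygote column and at 6829 FPKM in the early 2-cell column. The processing notes name Cufflinks for the zygotes and not for the early 2-cell samples. The part of these differences was not tested. From early 2-cell to 2-cell embryo 29 of 52 were higher and 5 lower, against 34.7% and 34.3%. This was the step at which most of the module moved, as did most of all genes. The module moved mainly upwards, while all genes were split evenly. The median difference over all 61 genes was 1.09, and -0.04 over all genes at 5 FPKM. Rn45s stood at 6829 FPKM in the early 2-cell column and at 0 in the 2-cell column, and the processing notes name Cufflinks for the 2-cell and not for the early 2-cell samples. Set against zygotes, which share both features with 2-cell embryos, 25 of 54 genes were higher in 2-cell embryos and 10 lower, against 33.7% and 36.3% of all genes.

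From 2-cell to 4-cell embryo 8 of 54 were higher and 5 lower, against 24.1% and 17.3% of all genes, and from 4-cell to 8-cell embryo 0 of 52 were higher and 5 lower, against 6.9% and 9.71%. From 8-cell embryo to ICM 2 of 51 were higher and 22 lower, against 27.8% and 21.9%. From ICM to mESC 7 of 47 were higher and 9 lower, against 11.6% and 40.6%. The 2 genes higher in ICM than in 8-cell embryos were Gtf2a2 and Gtf2b. At the early 2-cell to 2-cell step 27 of 53 genes were higher with stages scaled to the same median, against 30.5% of all genes, and 37 of 57 with the same total, against 41.5%. At the 8-cell to ICM step 23 of 50 were lower with equal medians, against 24.7%, and 23 of 51 with equal totals, against 24.1%. Scaling altered the first step, where 10 of 43 genes were higher and 6 lower with equal totals, against 25.9% and 7.43% of all genes. It also altered the last, where 15 of 48 were higher and 1 lower with equal medians, against 26.8% and 18.3%.

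**Figure D2:**
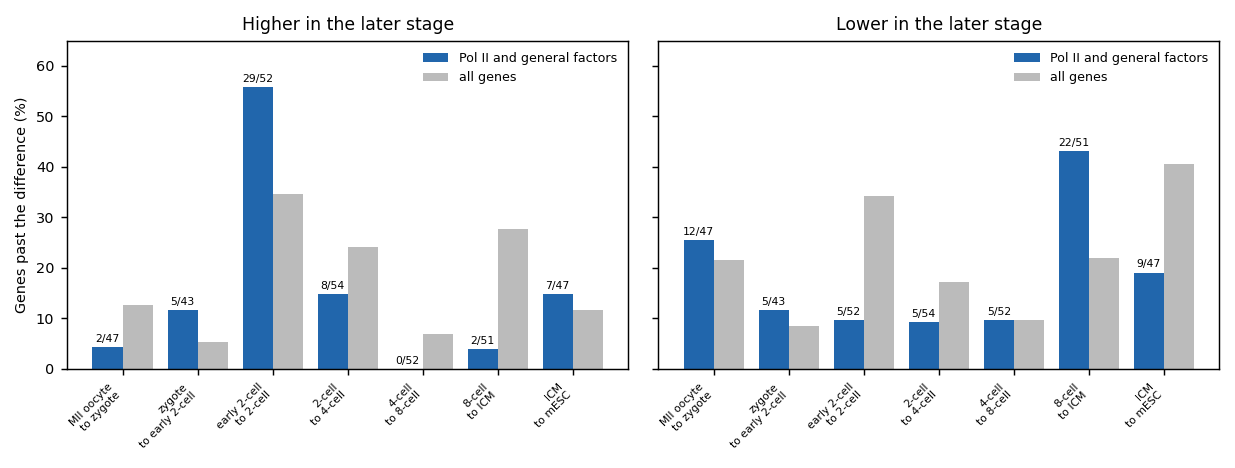
Percentage of genes past a difference of 1 in log2(FPKM + 1) with at least 5 FPKM in the higher stage, for the Pol II and general factor genes (blue, with counts above the bars) and all genes (grey), in each of the 7 steps. The blue bar exceeds the grey most at early 2-cell to 2-cell among higher genes (29 of 52) and at 8-cell to ICM among lower genes (22 of 51).

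The stage of the highest level was read for the 58 of the 61 genes with 5 FPKM somewhere. It was the oocyte to early 2-cell period for 18 (41.7% of all genes), the 2-cell to 8-cell period for 33 (29.8% of all genes), and ICM or mESC for 7 (28.5% of all genes). The 4-cell stage alone was highest for 16 genes (12.1% of all genes), among them Cdk7, Cdk9, Ccnt1 and Supt5. The MII oocyte was highest for 12, or 20.7% of the 58, below the 26.2% of all genes, and among them were Gtf2b, Taf3, Taf13 and Tbpl2. Taf13 has 2 near-identical copies elsewhere in the genome, so its level is uncertain. ICM was highest for Gtf2h1 only (17.7% of all genes). With stages scaled to equal medians the 3 periods held 19, 26 and 13 genes, against 42.3%, 25.9% and 31.7% of all genes. With equal totals they held 13, 40 and 5, against 36%, 38.1% and 25.9%. Taf15, Taf7l and Gtf2ird2 did not reach 5 FPKM at any stage.

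Among the Pol II core subunits the median level was 14.5 FPKM in early 2-cell and 82.0 in 2-cell embryos. Polr2e, one of the subunits shared by all nuclear RNA polymerases, was at 14.0 FPKM in MII oocytes, 11.9 in zygotes, 19.5 in early 2-cell, 134 in 2-cell, 243 in 4-cell and 263 in 8-cell embryos, 171 in ICM and 106 in mESC. Polr2h, also shared by all nuclear polymerases, was at 7.13, 4.20, 9.44, 169, 247, 255, 124 and 119 FPKM over the same stages. Polr2k, another shared subunit, was at 0.728, 6.31, 2.32, 56.8, 61.9, 78.5, 38.1 and 101 FPKM. All of these were low before the 2-cell stage and high from it on, with 6.88-fold, 17.9-fold and 24.4-fold steps from early 2-cell to 2-cell embryos.

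Polr2l, the shared subunit RPB10, was at 8.04 FPKM in early 2-cell and 38.8 in 2-cell embryos, and Polr2f, the shared subunit RPB6, at 89.0 and 374. Polr2h, Polr2k and Polr2l have near-identical copies elsewhere in the genome, 6 of them for Polr2k, so their FPKM values are uncertain. No such copy was found for Polr2e, and none for Polr2f, though an annotated transcript on the other strand covers 27.7% of its exons. The Polr2k level of 78.5 FPKM in the 8-cell stage column was 14.3 times the mean of 5.51 FPKM in the 8-cell control libraries of the knockdown table. Across the 53 genes with at least 1 FPKM in both, this ratio had a median of 1.28, and 33 were within a factor of 2. The tables were normalised separately and were not tested against each other. Rn45s stood at 0 in the 8-cell stage column and at 24968 to 29618 FPKM in the 8-cell control libraries. Its part in these ratios was not tested.

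Polr2a, the catalytic subunit that carries the phosphorylated tail, stayed between 0.915 FPKM in zygotes and 6.08 in mESC, the lowest of the core subunits from 2-cell embryos to mESC. Polr2b, the other large subunit, was at 7.01 FPKM in early 2-cell, 33.6 in 2-cell and 58.0 in 8-cell embryos. Subunits of the same enzyme thus differed widely in mRNA level per kilobase at every stage, though not always by size. In MII oocytes Polr2k, at 0.728 FPKM, and Polr2l, at 1.04, were below Polr2a at 2.32. In 2-cell embryos the core subunits ranged from 3.98 FPKM for Polr2a to 433 for Polr2j.

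Polr2c and Polr2g ran against the other subunits. Polr2c, the assembly partner of Polr2j, was at 279 FPKM in MII oocytes, 237 in zygotes and 399 in early 2-cell embryos, and at 107 in 2-cell embryos and 52.2 in ICM. It has 2 near-identical copies, so its level is uncertain. Polr2g, of the stalk that Polr2d also forms, was at 114, 82.4 and 99.0 FPKM up to the early 2-cell stage, at 21 in 2-cell embryos and then at 30.0, 46.9, 88 and 139 in 4-cell, 8-cell, ICM and mESC. Polr2d, its partner, was at 348 FPKM in MII oocytes, 47.0 in early 2-cell and 154 in 2-cell embryos. The partners of the stalk therefore moved in opposite directions at the early 2-cell to 2-cell step. Polr2m, a Pol II associated protein also known as Gdown1, was under 1 FPKM up to the early 2-cell stage and at 8.89 in 2-cell embryos and 51.9 in mESC.

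The TATA-binding protein family changed its make-up. Tbpl2, the TBP paralogue of the growing oocyte, was at 8.12 FPKM in MII oocytes, 6.45 in zygotes, 4.69 in early 2-cell and 0.458 in 2-cell embryos, and no higher than 0.0375 FPKM afterwards, with mESC listed at 0. Tbp was at 45.3, 52.8, 67.2, 60.7, 60.9 and 46.5 FPKM from oocyte to 8-cell embryo and at 17.6 in ICM and 20.5 in mESC. Tbpl1, a TBP-like factor that does not bind the TATA box, stayed between 5.56 and 14.5 FPKM. Tbpl2 made up 13.2% of the family's summed FPKM in MII oocytes, 5.83% in early 2-cell and 0.604% in 2-cell embryos, while Tbp stayed at 63.9% or more at every stage. Summed oocyte markers declined over the same steps (11612, 4094, 2800 and 497 FPKM), and their part in the Tbpl2 values was not tested. An opposite-strand gene, Pdcd2, covers 17.4% of Tbp exons, and the libraries are not stated to mark strand.

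**Figure D3:**
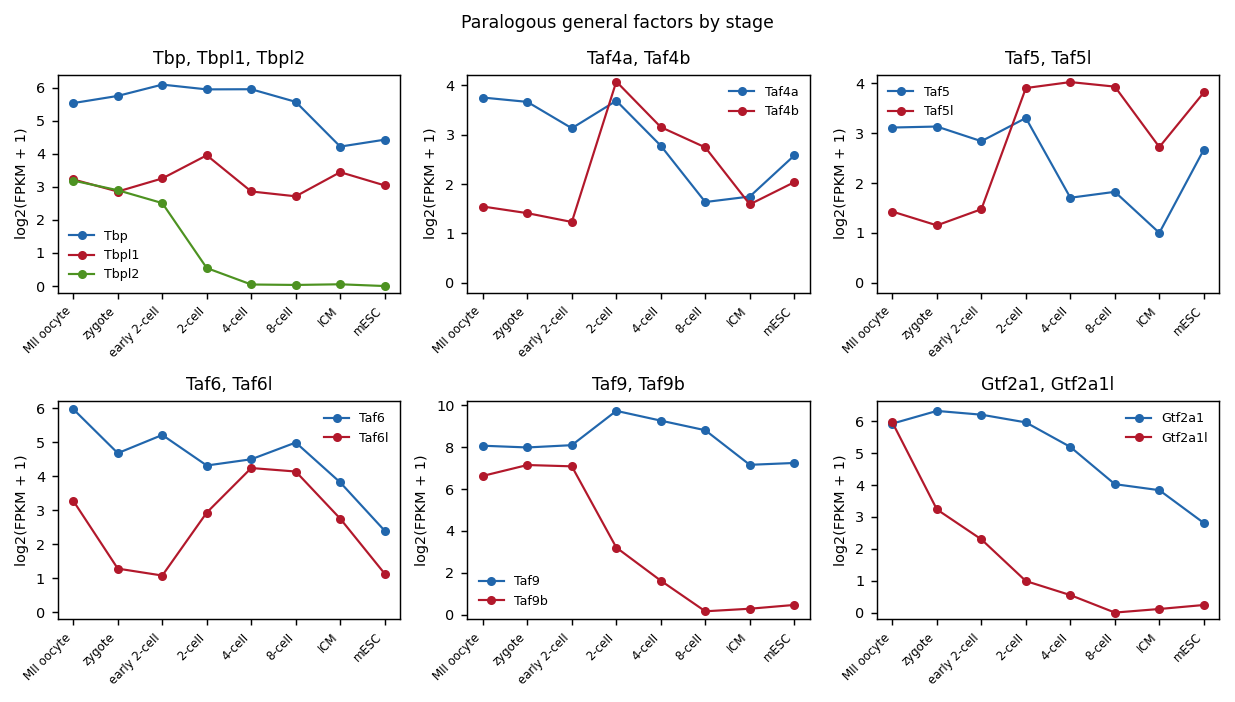
Stage courses of 6 sets of paralogous general factors as log2(FPKM + 1), 1 point per deposited stage column. Tbpl2, Taf9b and Gtf2a1l decline to near 0, and Taf4b and Taf5l cross above Taf4a and Taf5 at the 2-cell stage.

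TFIIA showed the same kind of change. Gtf2a1l, the germ-cell form of the large TFIIA subunit, was at 61.3 FPKM in MII oocytes, 8.41 in zygotes, 3.91 in early 2-cell and 0.984 in 2-cell embryos, and listed at 0 in 8-cell embryos. It was 50.6% of the sum with Gtf2a1 in MII oocytes and 9.61% in zygotes, a decline that came before the 2-cell stage. These 2 columns also differ in Rn45s, at 6967 FPKM in MII oocytes and 0 in zygotes, and its part was not tested. Gtf2a1, the general form, was at 59.8 to 79.1 FPKM through the 2-cell stage and at 35.6, 15.3, 13.3 and 6.01 afterwards. Gtf2a2, the small subunit, was at 204 FPKM in MII oocytes, 14.8 in 8-cell embryos and 141 in mESC, so that the large and small subunits took different courses. In the knockdown tables Tbpl2 and Gtf2a1l were listed at 0 in all 15 libraries.

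Among TFIID TAFs, Taf9b had the widest range of all 61 genes. It was at 98.1 FPKM in MII oocytes, 141 in zygotes and 135 in early 2-cell embryos, then at 8.25, 2.09 and 0.122 in 2-cell, 4-cell and 8-cell embryos. Its paralogue Taf9, which TFIID shares with SAGA, was at 268, 253 and 273 FPKM up to the early 2-cell stage and at 852 in 2-cell, 616 in 4-cell and 448 in 8-cell embryos. Taf9b went from 33.1% of the pair's sum in early 2-cell to 0.959% in 2-cell embryos. Taf9 shares 56.5% of its exon bases with Ak6 on the same strand and has near-identical copies, so its level is uncertain. In the 8-cell controls of the knockdown table Taf9 averaged 47.5 ± 11.9 FPKM (SD, n = 4), and the stage column was 9.43 times as high. The stage column and the controls also differ in Rn45s, as given with Polr2k above.

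Taf4b, the TAF4 paralogue required in the ovary, was at 1.92, 1.66 and 1.35 FPKM up to the early 2-cell stage and at 15.9 in 2-cell embryos, 11.8-fold higher than in early 2-cell embryos. Taf4a was at 7.77 and 11.9 FPKM at these stages. Taf4b was thus 14.8% of the pair before and 57.3% at the 2-cell stage, the reverse of the course of Taf9b, Tbpl2 and Gtf2a1l. Taf5l, of the SAGA complex, went from 22.4% to 61.1% of its sum with Taf5 over the same step and to 87.1% at the 4-cell stage. Taf6l, also of SAGA, went from 2.98% to 25.9% and 45.4% of its sum with Taf6. An opposite-strand gene, Ap4m1, covers 38.2% of Taf6 exons, so this share is uncertain. Both SAGA-type genes were below 2 FPKM in zygotes and early 2-cell embryos.

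Taf3, a TFIID subunit that reads methylated histone H3 at promoters, declined through all stages, from 174 FPKM in MII oocytes over 54.1 in early 2-cell, 45.1 in 2-cell and 6.42 in 8-cell embryos to 2.82 in mESC. Taf1, the largest TAF, stayed between 2.32 and 7.27 FPKM. Taf7, which binds Taf1, stayed between 37.6 and 128 FPKM, and its paralogue Taf7l did not exceed 0.56 FPKM. Taf10, shared by TFIID and SAGA, was at 4.67 FPKM or less up to ICM and at 15.7 in mESC, though it has a near-identical copy and overlaps Ilk on the other strand. The 5 genes counted as lower at the early 2-cell to 2-cell step, when most were higher, were Taf9b, Gtf2b, Polr2c, Polr2g and Gtf2ird1 of the TFII-I family.

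Gtf2b encodes TFIIB, which links TBP to the polymerase. It was at 376, 303 and 267 FPKM in MII oocytes, zygotes and early 2-cell embryos and at 36.0, 34.7 and 29.1 FPKM in 2-cell, 4-cell and 8-cell embryos, a 7.42-fold lower level in 2-cell than in early 2-cell embryos. It was at 76.2 FPKM in ICM and 38.3 in mESC. With a single gene for this factor and no copy found, the sum for TFIIB follows it. TFIIE and TFIIF went the other way, with sums of 31.6 and 46.8 FPKM in early 2-cell and 61.8 and 169 in 2-cell embryos.

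TFIIH core genes summed to 46.1 FPKM in early 2-cell, 173 in 2-cell and 276 in 8-cell embryos. Gtf2h5, the smallest subunit, needed for DNA repair, was at 28.2 FPKM in MII oocytes, 5.42 in early 2-cell, 71.0 in 2-cell and 108 in 8-cell embryos, a 13.1-fold step at the 2-cell stage. Gtf2h4, a core subunit that binds the helicase Ercc3, was at 0.427 FPKM in zygotes, 1.65 in early 2-cell, 8.58 in 2-cell and 32.2 in 4-cell embryos. The kinase genes Cdk7 and Ccnh were at 2.54 and 3.38 FPKM in early 2-cell embryos and at 12.3 and 16.7 in 2-cell embryos. Mnat1, the third subunit of the kinase, which the name rule leaves out, was at 17.3 FPKM in MII oocytes, 2.90 in early 2-cell, 8.70 in 2-cell embryos and 37.5 in mESC. Ercc3, a TFIIH helicase also outside the rule, was at 3.27 and 8.93 FPKM at the early 2-cell and 2-cell stages, and Ercc2, the other helicase, at 0.594 and 0.543.

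For elongation, Cdk9 was at 1.21 FPKM in MII oocytes, 0.951 in zygotes, 1.12 in early 2-cell, 19.2 in 2-cell, 22.9 in 4-cell and 8.72 in 8-cell embryos. Ccnt1, its cyclin, was at 36.5, 17.1, 13.1, 33.1, 56.7 and 36.5 FPKM over these stages and at 12.1 in ICM and 2.64 in mESC. Up to the early 2-cell stage the measured polyadenylated mRNA of the kinase was thus low where that of its cyclin was not. Neither mRNA without a poly(A) tail nor protein was measured. The 17.1-fold step of Cdk9 at the 2-cell stage compared with 2.53-fold for Ccnt1. Supt5, of the pausing factor DSIF, was at 22.0 FPKM in MII oocytes, 4.43 in zygotes, 6.52 in early 2-cell, 22.8 in 2-cell and 63.1 in 4-cell embryos and at 12.5 in ICM. Supt6, a histone chaperone that travels with Pol II, was lowest in mESC at 2.51 FPKM and highest in MII oocytes at 17.1. Ccnt1, Supt5 and Supt6 were among the genes counted as lower in ICM than in 8-cell embryos, and Cdk9 was not.

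Of the 4 SL1 TAFs, which act with Pol I, Taf1a was at 103 FPKM in zygotes and 23.1 in early 2-cell embryos. These 2 columns also differ in Rn45s, at 0 and 6829 FPKM, and its part was not tested. Taf1c was at 0.267 FPKM or less up to the early 2-cell stage and at 15.1 in 4-cell embryos. The TFII-I gene Gtf2i was below 0.2 FPKM up to the early 2-cell stage and at 5.30 in 2-cell embryos.

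Other genes of the pathway were read from fixed lists by the same stage rule. At the early 2-cell to 2-cell step 29 of 33 Mediator genes, 24 of 30 pausing and elongation genes and 11 of 13 Pol II assembly and tail phosphatase genes had at least 5 FPKM in the higher stage. Of the 29 Mediator genes 10 were higher and 7 lower, of the 24 pausing and elongation genes 10 and 3, and of the 11 assembly and phosphatase genes 6 and 2. These counts stand beside 34.7% of all genes higher and 34.3% lower. Gpn3, a GTPase for Pol II assembly, was at 0.529 FPKM in early 2-cell and 154 in 2-cell embryos. Med30 of Mediator was at 351 FPKM and 13.1 FPKM at these stages.

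The Nr5a2 knockdown at the 8-cell stage gave values with replicates. NR5A2 is a nuclear receptor of early embryos, and the comparison asked which genes differed when it was reduced. With limma on log2(FPKM + 1), a scale that understates changes of low genes, and p-values adjusted over all 8170 genes tested, 0 of 53 tested genes of the module rose or fell, against 1.57% of all genes higher and 0.698% lower. The other 7, Gtf2a1l, Gtf2ird2, Taf15, Taf5, Taf7l, Taf9b and Tbpl2, were below 1 FPKM in too many libraries. At an unadjusted p under 0.05 there were 14 genes higher and 3 lower, against 13.7% and 6.87% of all genes. The fold change was positive for 41 of 53, against 60.5%, with a median of 0.32 beside 0.12 for all genes. All genes together were shifted upward by this 0.12, and with libraries scaled to the same median the module's median was 0.20 beside 0.02, with 5 genes higher and 3 lower at an unadjusted p under 0.05, against 9.68% and 9.97% of all genes.

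The 4 control and 4 knockdown libraries did not overlap for 11 genes that were higher and 1 that was lower in the knockdown, against 8.38% and 3.45% of all genes. The higher ones were Ccnh, Gtf2e2, Gtf2f2, Gtf2h5, Polr2c, Polr2f, Taf1b, Taf1d, Taf7, Taf8 and Tbp, and the lower one was Taf6l. After median scaling Ccnh, Gtf2h5, Polr2c, Taf7, Taf8 and Tbp were still apart in the upward direction, and Taf6l, Gtf2h1 and Polr2e in the downward direction, against 5.7% and 5.65% of all genes.

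Gtf2h5 was at 122, 112, 108 and 144 FPKM in the controls and 205, 222, 153 and 206 in the knockdowns. Every knockdown library was above every control, and the groups differed by 0.69 on the log2 scale (SE 0.17, limma adjusted p = 0.0558). Taf6l was at 15.6, 16.7, 13.3 and 12.7 FPKM in the controls and 6.76, 5.01, 11.1 and 7.27 in the knockdowns, of which replicate 3 was nearest to the controls (-0.91, SE 0.25, limma adjusted p = 0.0808). Without knockdown replicate 3 both passed the threshold, with limma adjusted p of 0.0282 for Gtf2h5 and 0.0387 for Taf6l. Gtf2h5 also passed with a filter of 5 FPKM (limma adjusted p = 0.04996). Neither gene passed in any other alternative. Over all 16 alternatives the limma adjusted p went up to 0.153 for Gtf2h5 and 0.198 for Taf6l.

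Ccnh, the cyclin of the TFIIH kinase, was at 7.35, 8.21, 9.79 and 8.88 FPKM in the controls and 21.1, 16.5, 12.2 and 13.4 in the knockdowns, with the groups apart (0.79, SE 0.23, limma adjusted p = 0.0907). Its kinase Cdk7 averaged 7.02 ± 0.971 and 7.93 ± 0.717 FPKM (SD, n = 4 each), with overlapping groups. Taf7 was at 14.1, 19.4, 17.4 and 15.4 FPKM and at 45.2, 32.3, 20.8 and 26.5 (0.83, SE 0.24, limma adjusted p = 0.0984). Tbp was at 13.1, 14.4, 11.3 and 14.6 FPKM and at 26.7, 25.4, 18.0 and 17.7 (0.66, SE 0.21, limma adjusted p = 0.122). For both, all knockdown libraries exceeded all controls, by least in replicates 3 and 4, and neither passed the threshold.

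**Figure D4:**
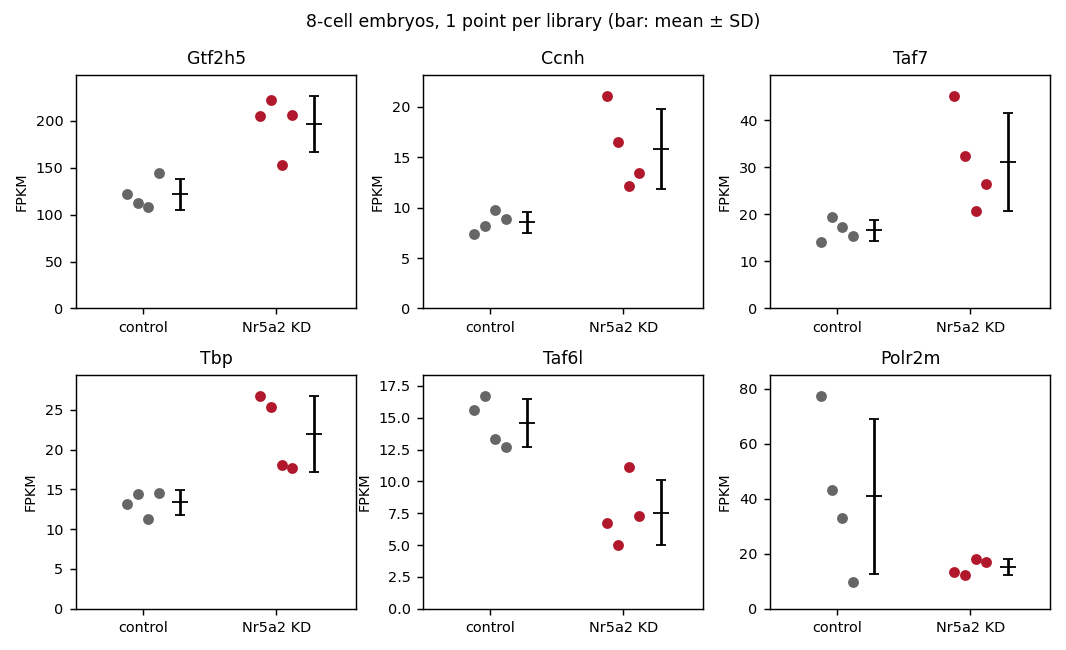
FPKM of 6 genes in 4 control (grey) and 4 Nr5a2 knockdown (red) libraries of 8-cell embryos, 1 point per library, with mean and SD beside them. Gtf2h5, Ccnh, Taf7 and Tbp have every knockdown point above every control, Taf6l the reverse, and Polr2m has 1 control, replicate 4, below all knockdown points.

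Polr2m was at 77.4, 43.2, 33.2 and 9.69 FPKM in the controls and 13.3, 12.3, 18.1 and 17.1 in the knockdowns, and its groups overlapped through control replicate 4 alone (-1.06, SE 0.48, limma adjusted p = 0.233). Without control replicate 4 it fell (-1.61, SE 0.29, limma adjusted p = 0.0397). Polr2a averaged 5.69 ± 1.35 FPKM in controls and 7.07 ± 2.22 in knockdowns, and Polr2b 44.7 ± 4.38 and 60.6 ± 9.83 (SD, n = 4 each). Cdk9 averaged 2.69 ± 0.893 and 2.71 ± 0.936 FPKM, a difference of 0.01 on the log2 scale with a 95% interval from -0.60 to 0.61. Supt5 averaged 87.9 ± 17.1 and 79.4 ± 9.17 FPKM, and Gtf2b 14.97 ± 4.03 and 20.4 ± 7.47. None of these 5 genes passed the threshold. Oocyte markers summed to 39.6 to 129 FPKM in the controls and 27.7 to 67.9 in the knockdowns, and trophectoderm markers to 17.1 to 59.1 and 45.7 to 104. Inner cell mass and stem cell markers summed to 122 to 223 FPKM in the controls and to 48.7, 73.2, 142 and 157 in knockdown replicates 1 to 4. They were lowest in knockdown replicates 1 and 2, the libraries with the highest Taf7, Tbp and Ccnh. These were also the libraries with the least Nr5a2, at 3.76 and 4.25 FPKM against 6.72 and 6.60 in knockdown replicates 3 and 4. Markers of 2-cell embryos summed to 1.1 to 4.72 FPKM in controls and 3.65 to 6.72 in knockdowns. The part of these markers and of the remaining Nr5a2 in the values above was not tested.

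Of the other pathway genes, 1 passed in this knockdown. Med18, of the Mediator head, rose from 2.998 ± 0.924 to 7.70 ± 1.97 FPKM (SD, n = 4 each; log2 fold change 1.13, SE 0.26, limma adjusted p = 0.0499). It was the only call among 32 Mediator, 26 pausing and elongation, 13 assembly and phosphatase and 3 TFIIH genes tested, a share near the 1.57% of all genes called higher.

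In blastocysts, Gata4 knockdown was compared with control. GATA4 is a transcription factor of the primitive endoderm. None of 53 tested genes of the module passed in limma (0 higher and 0 lower), against 0% and 0.0342% of all genes, and at an unadjusted p under 0.05 there were again 0 and 0, against 0.957% and 1.34%. The groups did not overlap for 0 genes in either direction, against 0.945% and 1.43%. The fold change was positive for 34, against 47.5% of all genes, with a median of 0.05 beside -0.02. The same 7 genes as at the 8-cell stage were below the filter. With libraries scaled to the same median 1 gene, Taf12, had groups that did not overlap (higher in the knockdown), against 3.42% of all genes higher and 2.93% lower under that scaling.

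The blastocyst libraries were of 2 kinds that cut across the groups. Rn45s was listed at 0 in control replicate 2 and knockdown replicates 1 and 2 and at 37959 to 44718 FPKM in the other 4. In a fit that also held the knockdown, 42 of 53 genes of the module were lower in the libraries with Rn45s and 0 higher (limma adjusted p under 0.05), against 51% and 0.159% of all genes, with a median of -0.85 beside -0.64. After scaling to equal medians 0 of 53 passed the threshold, at an all-gene count of 0 lower and 1 higher. The module's median was then -0.20 beside -0.05 for all genes.

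Tbp was at 5.99, 11.1 and 7.08 FPKM in control replicates 1 to 3 and 12.9, 10.7, 5.48 and 5.63 in knockdown replicates 1 to 4. Levels were 10.7 to 12.9 FPKM in the 3 libraries without Rn45s and 5.48 to 7.08 in the 4 with it, each range holding controls and knockdowns. Polr2e followed the same order at 163, 247 and 107 FPKM and 257, 263, 139 and 150. Gtf2h5 was at 30.5, 61.4 and 17.3 FPKM and at 59.2, 62.0, 36.4 and 27.3 (0.44, SE 0.46, limma adjusted p = 1 after rounding). Taf1c, of SL1, was at 3.68, 4.58 and 3.54 FPKM and at 1.49, 5.30, 5.48 and 2.41 and did not follow the kind of library.

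**Figure D5:**
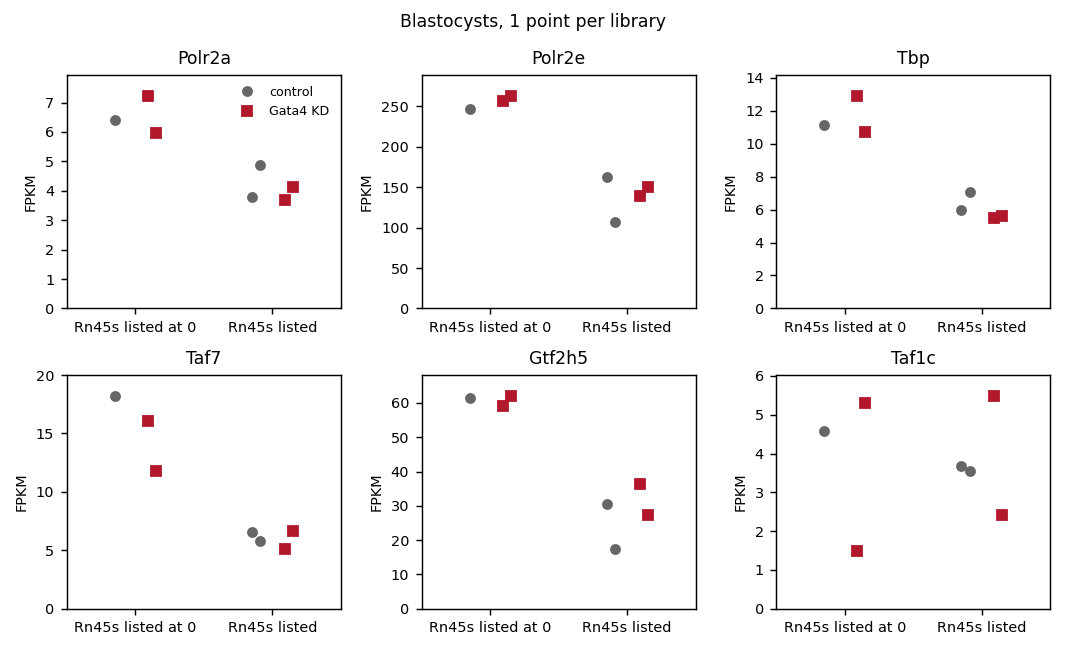
FPKM of 6 genes in 7 blastocyst libraries, divided by whether Rn45s was listed at 0 (3 libraries) or above it (4), for controls (grey circles) and Gata4 knockdowns (red squares). Polr2a, Polr2e, Tbp, Taf7 and Gtf2h5 separate by kind of library in controls and knockdowns alike, while Taf1c does not.

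The 5 genes with the smallest p in the Gata4 comparison were Taf10, Polr2k, Polr2j, Polr2f and Gtf2h5, with log2 fold changes of 0.65, 0.48, 0.48, 0.42 and 0.44 and standard errors of 0.43, 0.40, 0.43, 0.40 and 0.46. Every one of these estimates was within 2 standard errors of 0. Within the 3 libraries without Rn45s, which hold 1 control, Taf10 differed by 0.05, Polr2k by 0.11, Polr2j by 0.22, Polr2f by 0.36 and Gtf2h5 by -0.02. Within the 4 libraries with Rn45s, 2 of each group, the same genes differed by 0.83, 0.45, 0.37, 0.23 and 0.44, with standard errors of 0.31, 0.40, 0.36, 0.40 and 0.37, and none passed the threshold. With the kind of library as a covariate 0 genes of the module passed, 17 of 53 had a positive fold change, against 32.3% of all genes, and the median was -0.06 beside -0.13 for all genes. Without the covariate 34 of 53 were positive, against 47.5% of all genes, and the medians were 0.05 and -0.02. The covariate thus moved both medians alike, while the share of positive fold changes fell further in the module. Leaving out single libraries moved the count of positive fold changes between 16 of 52, without knockdown replicate 1, and 46 of 54, without control replicate 2, while the median over all genes went from -0.16 to 0.17. It was 21 of 54 without control replicate 1, 17 of 54 without control replicate 3 and 18 of 52 without knockdown replicate 2, against 34 of 53 with all 7 libraries. The share of all genes with a positive fold change moved with it, from 29.4% without knockdown replicate 1 to 68% without control replicate 2.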

How the data were processed

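RNA was measured in 32 samples. The submitters' processing notes name CASAVA 1.8, STAR 2.4.0 and the mm9 build for all samples and Cufflinks 2.2.1 for 20 of them. The authors deposited FPKM values, with 1 column per stage or per knockdown library. How replicates became a stage column is not given in the sources used here, nor is read depth, and 30 stage values were missing. Genes and lists were chosen with earlier results of these data known. Named genes were those called, the 5 with the smallest p per knockdown, the 12 with the widest stage range and a fixed set of 21 key genes; others were named as extremes of their group, as not overlapping, or as off the common course after their values were seen. For each knockdown, genes reaching 1 FPKM in a number of libraries equal to the smaller group were fitted as log2(FPKM + 1) with limma 3.58.1 (trend, R 4.3.3), and p-values were Benjamini-Hochberg adjusted over all genes, threshold 0.05. The fit was tested on simulated data. Near-identical copies (95% identity over at least 50% of the coding sequence, BLAST 2.17.0) and exon overlaps (10% or more) were read from GENCODE M21. Alternatives were another pseudocount, filter, scaling or covariate, a replicate block and leaving out each library. Scaling for the counts of groups that do not overlap and for the kind of blastocyst library, and the zygote to 2-cell comparison, were added after the data were seen. Python 3.11.15 was used with numpy 2.4.6, pandas 2.3.3 and matplotlib 3.10.9.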

Additional observations from a re-analysis of the deposited data

How the results depend on the processing

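In the Nr5a2 knockdown the count of genes rising went from 0 to 1 (Gtf2h5) with a filter of 5 FPKM, and leaving out single libraries gave 0 to 1 rising and 0 to 1 falling. Leaving out knockdown replicate 3 gave 1 each (Gtf2h5 and Taf6l), and leaving out control replicate 4 gave 1 falling (Polr2m). After median scaling 6 genes were higher and 3 lower without overlap in this knockdown (5.7% and 5.65% of all genes), and 1 gene was higher in the Gata4 knockdown (3.42% of all genes). The number lower in blastocyst libraries with Rn45s went from 42 to 0 under median scaling and to 0 under quantile normalization. At MII oocyte to zygote the count higher was 2, and 4 with a pseudocount of 0.1, 10 with equal totals and 4 with equal medians, while the count lower went from 12 to 6 with equal totals. At 2-cell to 4-cell equal totals gave 4 higher and 8 lower, from 8 and 5. Equal medians gave 8 lower at early 2-cell to 2-cell, from 5, and 15 higher and 1 lower at ICM to mESC, from 7 and 9. With zygotes in place of early 2-cell embryos, an alternative chosen after seeing the data, 25 genes were higher in 2-cell embryos, from 29, and 10 lower, from 5. Equal medians also put 13 genes highest at ICM or mESC, from 7. The cause of these shifts was not tested, and FPKM without read totals limits how the stages can be scaled.

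Deviations from the group mean were correlated between same-numbered libraries at 0.036, 0.082, -0.108 and -0.0016 at the 8-cell stage. In blastocysts these correlations were -0.096, 0.277 and 0.018, and those of differently numbered libraries ran from -0.364 to 0.505. So few pairs cannot show whether the replicate numbers mark a shared litter or day, which the labels do not name. With the replicate number as a block, 0 genes of the module rose and 0 fell in either knockdown. In the Nr5a2 knockdown the calls over all genes went from 128 higher and 57 lower to 37 and 18. The Gata4 block fit left out knockdown replicate 4, which has no control of the same number. It gave 4 higher and 12 lower over all genes. Without that library and without a block there were 2 and 11, and with all 7 libraries 0 and 3.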
